A study of Mus musculus with 30 samples.

Results

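The cytosolic ribosomal protein genes encode the proteins that, with the ribosomal RNAs, build the large and small subunits of the ribosome that translates nuclear mRNAs. Members were the rows of the count matrix whose Ensembl identifier belongs to a protein-coding mouse symbol of the form Rpl or Rps followed by a number, with an optional a or x, plus Rplp0, Rplp1, Rplp2, Rpsa, Rps3a1 and Fau. Rps27a and all pseudogenes were left out. The rule found 77 of the 57186 genes of the matrix, 46 of the large and 31 of the small subunit. It used names only and no measured value.

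RNA was sequenced from NIH/3T3 cells, a mouse fibroblast line grown in serum, and from CGR8 cells, a mouse embryonic stem cell line grown in N2B27 with 2i and LIF. Both lines carry the genotype ROSA26 SLT knock-in and are labelled as treated with cycloheximide (CHX), a blocker of translation elongation, at 0.1 µg/mL. RNA was taken at 0, 1, 2, 5 and 48 h, with 3 libraries for each line and time. The 0 h libraries carry the same dose label as the others and the same knock-in, so neither a vehicle arm nor an unmodified line enters any comparison, and each line is 1 line without a second clone. The labels call the libraries replicates A, B and C and do not say that they came from separate cultures, so p-values measure the spread between these libraries, which may be technical.

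Library totals ran from 18.2 M to 30.5 M counts, with M the prefix mega. The 6 pluripotency genes checked, Nanog and Pou5f1 among them, stood at 375 CPM (counts per M counts of the library) or more in every CGR8 library and at 0.383 CPM or less in every NIH/3T3 library. The fibroblast markers Col1a1, Col1a2, Col3a1 and Lox were high in NIH/3T3, while Thy1 and Postn, which were on the same list, stayed under 1 CPM there. Of the 77 members, 76 had enough counts to be tested in each line. Rpl24 was not tested, because it held at most 5 counts in any library, and in the reference annotation it overlaps another gene on its own strand. Rps10 held 6 to 83 counts per library and also overlaps a second gene on its strand. The overlapping genes of both held 0 counts in every library. Rpl13a, the next lowest, held 257 to 3079 counts. Such low counts for genes needed in every ribosome are values of this counting and were not taken as levels of the mRNA, and changes of Rps10 and Rpl13a are changes in those counts. In addition, 59 members have at least 1 named pseudogene with which reads could be shared, so their counts are uncertain.

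Ribosomal protein mRNAs are among the most abundant in a cell. In vertebrates most of them begin with a C followed by a run of pyrimidines, the 5′ terminal oligopyrimidine (TOP) motif, through which mTOR signalling and the RNA-binding protein LARP1 set their translation and stability together. Several of the proteins have added roles: Rpl5 and Rpl11 join the 5S RNA and can bind Mdm2, Rplp0, Rplp1 and Rplp2 form the stalk that recruits elongation factors, and many of the genes carry small nucleolar RNAs (snoRNAs) in their introns.

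The starts of 58 members had an entry in RefSeq. A window of 30 bases was read at each listed start, from 15 bases before the start to 14 after the start base, on the strand of the gene only. It was searched for a C followed by 6 or more bases that are each C or T. At least 1 listed start held such a run in 30 of the 58 members, or 51.7%, against 16.4% of 27025 genes with an entry. The windows shown here (build GRCm38.p6, 5′ to 3′ on the strand of the gene, run in capitals) are those of members whose values are described in the results. They show how far the run differs in length and place, and the windows of Rpl41, Rpl11 and Rps4x show no such run.
Fau, chr19:6057932-6057961, plus strand: tgcgcgcccccaCTTCTTCCTCTTTCTTga
Rplp2, chr7:141447636-141447665, plus strand: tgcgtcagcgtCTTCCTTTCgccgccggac
Rpl13a, chr7:45128731-45128760, minus strand: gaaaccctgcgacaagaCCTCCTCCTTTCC
Rpl4, chr9:64173372-64173401, plus strand: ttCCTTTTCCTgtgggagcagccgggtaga
Rps18, chr17:33955651-33955680, minus strand: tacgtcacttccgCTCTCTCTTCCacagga
Rps6, chr4:86857353-86857382, minus strand: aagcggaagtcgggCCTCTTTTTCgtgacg
Rpl38, chr11:114668565-114668594, plus strand: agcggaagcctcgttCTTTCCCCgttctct
Rpl39, chrX:37085208-37085237, minus strand: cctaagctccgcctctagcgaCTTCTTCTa
Rpl41, chr10:128549154-128549183, minus strand: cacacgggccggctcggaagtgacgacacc
Rpl11, chr4:136053379-136053408, minus strand: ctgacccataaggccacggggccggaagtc
Rps4x, chrX:102189377-102189406, minus strand: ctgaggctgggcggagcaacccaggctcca
A match is a run of letters near an annotated start. The absence of a match says only that these letters are not in this window, since the start used by the cells may lie elsewhere.

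At 0 h the members together took 6.46, 6.64 and 7.12% of all counts in the NIH/3T3 libraries A, B and C. In CGR8 they took 7.39, 8.99 and 7.29%. Per kilobase of the principal transcript, the stalk protein gene Rplp1 was the highest member in both lines, at 2761 ± 161 CPM per kb in NIH/3T3 and 3839 ± 587 in CGR8 (SD, n = 3). In NIH/3T3 it was followed by Rpl41 (2423 ± 203), which encodes the smallest ribosomal protein, Rplp0 (2187 ± 175), Rpl7a (2145 ± 217) and Rpl8 (1968 ± 121), and the SD range of each overlapped that of its neighbour. In CGR8, the SD range of Rplp1 lay above that of the next member, and the ranges of Rps27 (2304 ± 311), Rpl4 (2298 ± 187) and Rpl13 (2255 ± 364) overlapped.

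At the low end stood the same 5 genes in both lines. Rpl24 and Rps10 were lowest, followed by Rpl13a (27.7 ± 1.71 CPM per kb in NIH/3T3 and 65.8 ± 13.0 in CGR8), Rps15a (135 ± 5.28 and 150 ± 28) and Rpl30 (173 ± 12.1 and 155 ± 34.2). The place of Rps15a rests on a principal transcript of 5179 bases, the longest of all members, since without division by length it stood at 702 ± 27.4 CPM in NIH/3T3 and 779 ± 145 in CGR8. Leaving out Rpl24, the median member stood at 867 CPM per kb in NIH/3T3 and at 1051 in CGR8. Rpl13a, known for its part in a complex that silences inflammatory mRNAs, overlaps another annotated gene on its own strand. That partner held no counts in any library.

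Between the lines at 0 h, 33 of 76 members differed, 23 higher and 10 lower in CGR8, by edgeR's quasi-likelihood test at a Benjamini-Hochberg adjusted p under 0.05. Of all 17549 genes tested, 42.8% were called higher and 36.3% lower in CGR8, so the members' share of 43.4% called lay below that of all genes (79.1%). The largest differences upward were in Rps18, Rpl35a and Rps2. Rps18 stood at 330, 338 and 397 CPM in NIH/3T3 and at 1020, 1321 and 1002 CPM in CGR8, a log2 difference of 1.65 ± 0.19 (SE, adjusted p = 1.08e-08). No CGR8 library of Rps18 came near the NIH/3T3 range. Rpl35a (1.57 ± 0.16, adjusted p = 1.01e-09) and Rps2 (1.5 ± 0.14, adjusted p = 1.7e-10) differed by similar amounts. In the reference annotation Rps18, Rpl35a and Rps2 each overlap a gene on the opposite strand, and the strand setting of the counting is not known. They have 3, 6 and 11 named pseudogenes in the same order.

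The largest differences downward were in Rps3a1, Rplp0 and Rpl23. Rps3a1 stood at 1253, 1253 and 1294 CPM in NIH/3T3 and at 570, 817 and 628 CPM in CGR8, a log2 difference of -0.92 ± 0.17 (adjusted p = 1.29e-05). The groups did not overlap. Rplp0, the scaffold of the stalk, differed by -0.77 ± 0.18 (adjusted p = 0.000317) and Rpl23 by -0.63 ± 0.16 (adjusted p = 0.000858), whereas Rplp1, which binds Rplp0, was higher in CGR8 (0.43 ± 0.16, adjusted p = 0.0172). The balance of directions turned when each library was corrected for its trends on GC content and principal transcript length. Of the members, 20 were then called higher and 25 lower, with a median of 0.01 against 0.21 without the correction.

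**Figure D1:**
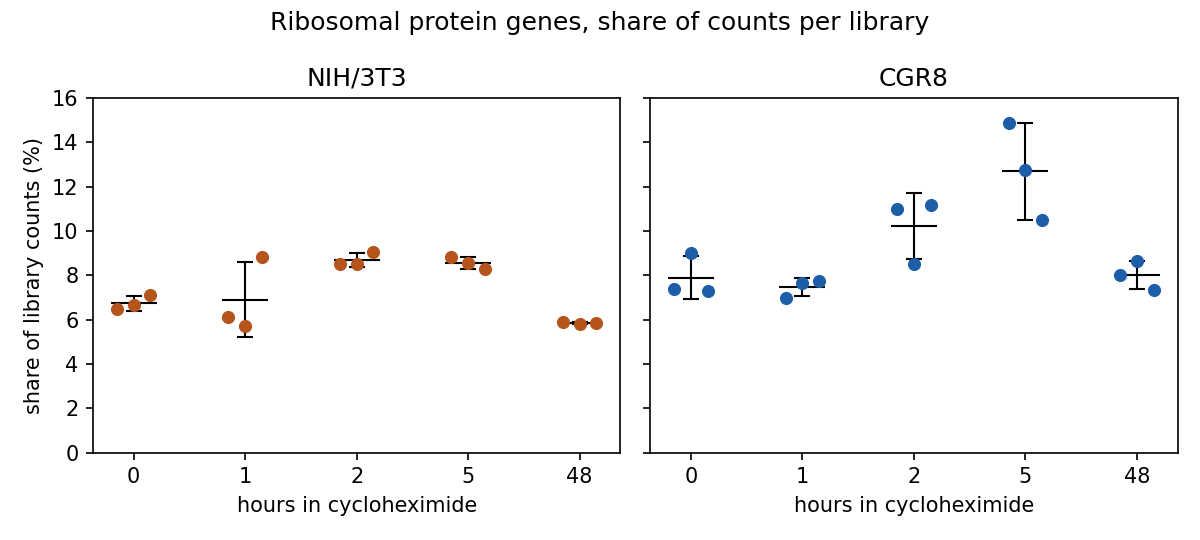
Share of all counts that fell in the 77 ribosomal protein genes (vertical axis, percent) in each library of NIH/3T3 (left) and CGR8 (right) by hours in cycloheximide, with times evenly spaced. Points are libraries A, B and C from left to right, and bars are the mean and SD of 3 libraries. The CGR8 share reached 14.88% in library A at 5 h, and the 3 NIH/3T3 libraries at 48 h, at 5.78 to 5.90%, lay below all those at 0 h.

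In cycloheximide the members' share of counts rose by 2 h in NIH/3T3 and then fell below its starting level at 48 h. It was 8.52, 8.49 and 9.07% at 2 h, 8.83, 8.54 and 8.28% at 5 h, and 5.90, 5.78 and 5.85% at 48 h. None of these 3 groups overlapped the 0 h libraries. At 1 h libraries A and B (6.13 and 5.73%) lay below all 0 h libraries, and library C (8.84%) lay near the level of 2 h.

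In CGR8 the share was 10.98, 8.51 and 11.17% at 2 h, and libraries A and C lay above all 0 h libraries. At 5 h it was 14.88, 12.73 and 10.50%, above every 0 h library, with a mean of 12.7 ± 2.19% against 7.89 ± 0.957% at 0 h. At 48 h it was 8.01, 8.63 and 7.36%, inside the 0 h range. Two-sided exact permutation tests gave p = 0.1 for NIH/3T3 at 2, 5 and 48 h and for CGR8 at 5 h, which is the smallest p that 3 against 3 libraries allow, and p = 0.2 for CGR8 at 2 h. Counts are shares of a library, so a rise in ribosomal protein mRNA and a loss of other mRNAs cannot be told apart, and neither can fewer cells and less RNA per cell.

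**Figure D2:**
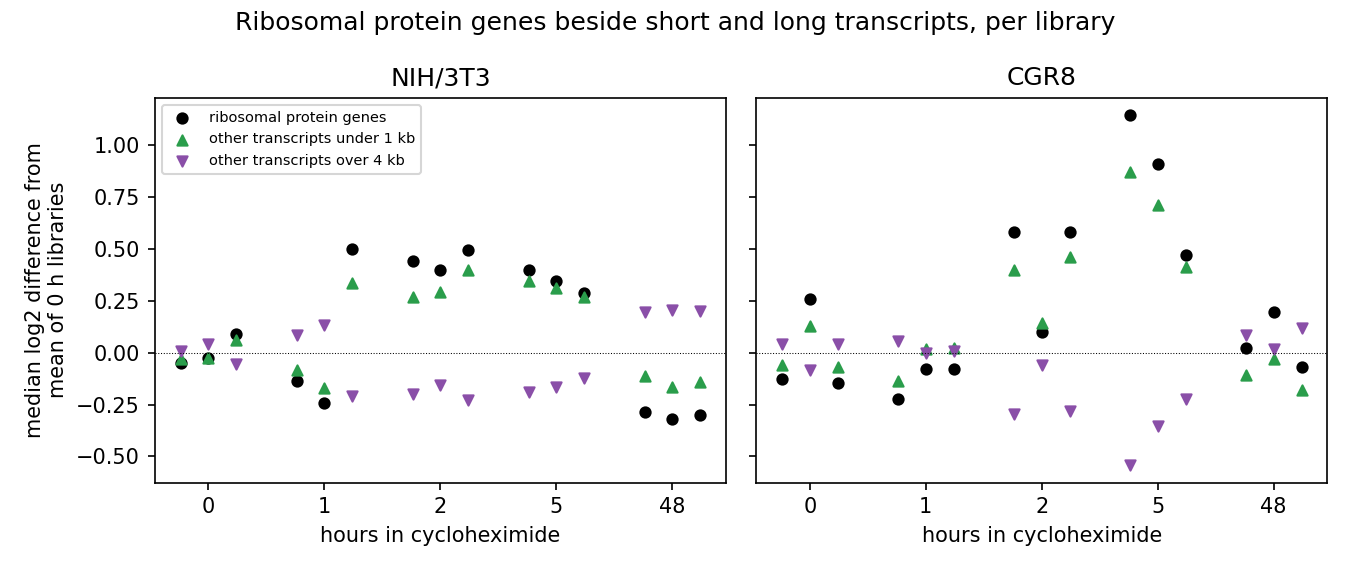
Median log2 difference from the mean of the 0 h libraries (vertical axis, log2 CPM) in each library by hours in cycloheximide, for 76 ribosomal protein genes (circles), other protein-coding genes whose longest transcript is under 1 kb (up triangles) and over 4 kb (down triangles). The circles and up triangles lie on the same side of 0 in all NIH/3T3 libraries, and the long transcripts lie on the other side at 2 and 5 h in both lines.

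Other short transcripts moved in the same direction as the members in most libraries. In CGR8 at 5 h the median member stood 1.14, 0.91 and 0.47 (log2 CPM) above the 0 h mean in libraries A, B and C, and the median of 492 other protein-coding genes with a longest transcript under 1 kb stood 0.87, 0.71 and 0.42 above it. The median of 5023 genes over 4 kb stood at -0.54, -0.35 and -0.22 in the same libraries. In each class library A lay farthest from the 0 h mean and library C nearest, with the long transcripts on the other side of it. CGR8 library B at 0 h stood apart from A and C in the same way, with members at 0.26 and short transcripts at 0.13, and so did NIH/3T3 library C at 1 h, with members at 0.50 and short transcripts at 0.33.

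In NIH/3T3 members and short transcripts lay further apart at 48 h than at 5 h. The median of members minus that of short transcripts was 0.05, 0.03 and 0.02 at 5 h and -0.17, -0.16 and -0.16 at 48 h. In CGR8 it was 0.27, 0.20 and 0.06 at 5 h and 0.13, 0.23 and 0.11 at 48 h. The gaps at 5 and 48 h overlapped there. At 48 h in CGR8 the members stood at 0.02, 0.20 and -0.07 while short transcripts stood at -0.11, -0.03 and -0.18. The members were thus higher than the short transcripts in each of the 3 libraries. In NIH/3T3 the members stood at -0.29, -0.32 and -0.30 and short transcripts at -0.11, -0.16 and -0.14, so the members were the lower class in each library. The share of counts in mitochondrially encoded genes, a measure of RNA quality and of library make-up, was 0.557 ± 0.118% at 0 h, 0.400 ± 0.0165% at 5 h and 0.847 ± 0.138% at 48 h in NIH/3T3 (SD, n = 3). In CGR8 it was 0.539 ± 0.0701, 0.320 ± 0.101 and 0.642 ± 0.105% at the same times. Beyond the GC and length correction given for each comparison, the part of transcript length and library make-up in the members' changes was not tested.

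At 1 h no member was called in either line by edgeR's quasi-likelihood test. Of all genes, 0.732% were called in NIH/3T3 and 0.27% in CGR8. At an unadjusted p under 0.05 there was 1 member in NIH/3T3 and 0 in CGR8, and DESeq2 called 0 in both. With limma's voom and sample quality weights, 26 members were called in NIH/3T3, all lower, and 0 in CGR8, where that method called 20.7% and 6.55% of all genes. Without NIH/3T3 library C at 1 h the count was 1. The median member in NIH/3T3 stood at 0.08 in the fit of all libraries, at -0.14 with voom and at -0.21 without library C, so its direction rested on that library. In CGR8 the median member stood at -0.14 against -0.003 over all genes, and 68 of 76 members lay below 0. The CGR8 library medians were -0.23, -0.08 and -0.08 at 1 h and -0.13, 0.26 and -0.15 at 0 h, so the groups overlapped.

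At 2 h 46 of 76 members rose in NIH/3T3 and none fell, with a median log2 fold change of 0.45 against -0.01 over all genes. Of all genes tested, 16.1% rose. All 3 treated libraries lay above all 0 h libraries in 60 members, as in 21.7% of all genes. In CGR8 22 of 76 members rose and none fell, where 8.97% of all genes rose, with a median of 0.42. In 18 members, as in 15% of all genes, the 3 CGR8 libraries at 2 h lay above those at 0 h. All 22 members called in CGR8 were among the 46 called in NIH/3T3 (47.8% of those).

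The counts at 2 h depended on single libraries. In CGR8 no member was called without library A or C at 0 h or without library C at 2 h, 12 were called without A at 2 h, and 36 and 44 were called without B at 0 h and without B at 2 h. In NIH/3T3 the count was 17 without A at 0 h, 28 without B at 0 h and 20 without C at 2 h. With GC content and transcript length corrected, 25 members rose and 2 fell in NIH/3T3, and 6 rose and 1 fell in CGR8, with medians of 0.15 and 0.09. The corrected fits called 30.2% of all genes in NIH/3T3 and 15.6% in CGR8, so the 7 of 76 members in CGR8 were a smaller share than that of all genes.

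At 5 h the rise was larger in CGR8. There 66 of 76 members rose and none fell, with a median log2 fold change of 0.89 (quartiles 0.62 and 1.02), a fold of 1.85. Of all genes tested, 24.9% rose and the median was -0.01. In NIH/3T3 34 of 76 rose and none fell, with a median of 0.34 and 10 members below 0, where 24% of all genes rose. All 34 were among the 66 called in CGR8 (51.5% of those). All 3 libraries at 5 h lay above all 0 h libraries in 51 members in CGR8, as in 25.7% of all genes, and in 55 in NIH/3T3, as in 32.3%. In 2 NIH/3T3 members they lay below all 0 h libraries, as in 34.6% of all genes. Both subunits took part: 40 of 45 large and 26 of 31 small subunit genes rose in CGR8, and 18 and 16 in NIH/3T3.

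After the correction for GC content and transcript length, 39 members rose and 4 fell in CGR8 at 5 h (median 0.26), and 24 rose and 16 fell in NIH/3T3, with a median of 0.07. The corrected fits called 46.2% of all genes in CGR8 and 49% in NIH/3T3, counting genes called higher or lower. The 43 of 76 members called in CGR8 were a larger share than that of all genes. The 40 of 76 in NIH/3T3 were near that of all genes. The share of all genes that rose in the corrected fits is not given here, so the members' rise was not compared with it. Without NIH/3T3 library A at 0 h the NIH/3T3 count was 21 and without library A at 5 h it was 20, while in CGR8 leaving out each library in turn gave 60 to 74.

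**Figure D3:**
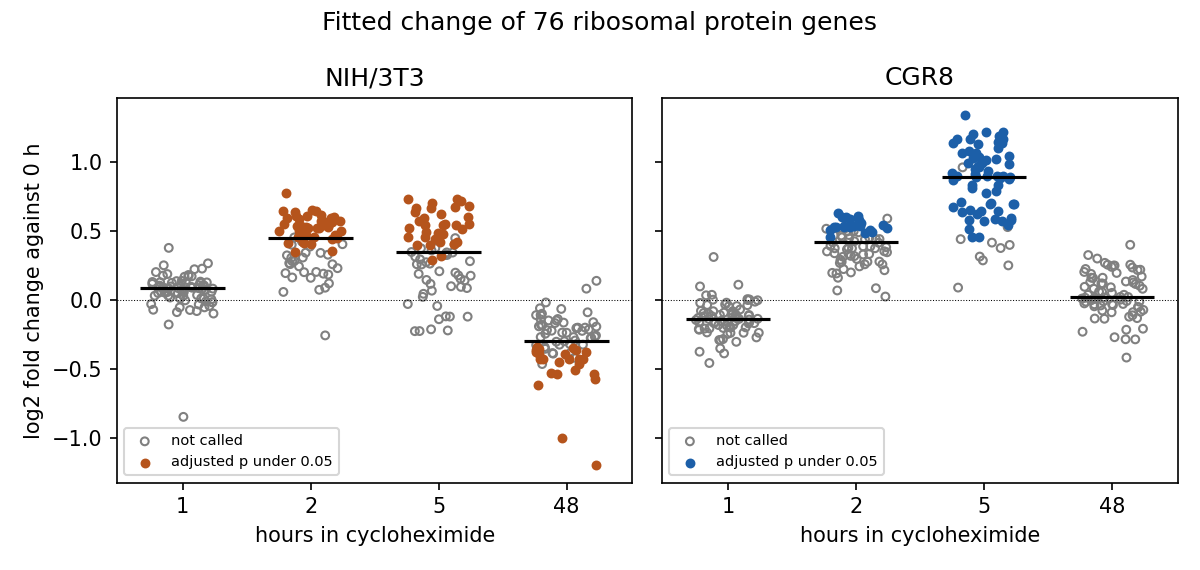
Fitted log2 fold change against 0 h (vertical axis) of the 76 tested ribosomal protein genes at 1, 2, 5 and 48 h in NIH/3T3 (left) and CGR8 (right). Filled points passed an adjusted p of 0.05, open grey points did not, and bars mark the median, which was 0.89 in CGR8 at 5 h and -0.30 in NIH/3T3 at 48 h.

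Without the correction, the rise of Rpl41 was the largest called in CGR8 at 5 h. It stood at 1059, 906 and 974 CPM at 0 h and reached 3410, 2151 and 1857 CPM at 5 h, or 1.34 ± 0.23 in log2 (adjusted p = 0.000185). The lowest library at 5 h lay well above the highest at 0 h, and library A stood highest. In NIH/3T3 it went from 1314, 1375 and 1542 to 2222, 2333 and 2404 CPM, again without overlap (0.72 ± 0.17, adjusted p = 0.00212). The next largest rises in CGR8 were those of Rps21 (1.22 ± 0.19), Rpl9 (1.21 ± 0.17), Rps9 (1.20 ± 0.17) and Rps24 (1.19 ± 0.17), and all 4 had adjusted p values of 9.62e-05 or less. After the GC and length correction the rises were 0.71 for Rpl41 (adjusted p = 0.0025), 0.42 for Rps21, 0.43 for Rpl9, 0.68 for Rps9 and 0.63 for Rps24, all still called. The largest called were then those of Rps15a (1.11, adjusted p = 0.00039), Rpl22 (0.90, adjusted p = 9.4e-05) and Rpl18 (0.84, adjusted p = 0.00018). Their principal transcripts are 5179, 2051 and 2989 bases long, against a median of 886.5 over the tested members. The correction uses these annotated lengths, and whether the cells use these transcripts was not tested. RPS24 is one of the proteins mutated in Diamond-Blackfan anaemia. In NIH/3T3 the largest rises were those of Rps14 (0.73 ± 0.19, adjusted p = 0.00475) and Rpl9 (0.73 ± 0.16, adjusted p = 0.00115), then Rpl41, Rpl22 (0.70 ± 0.15, adjusted p = 0.000961) and Rpl17 (0.68 ± 0.15, adjusted p = 0.000991). The corrected rises there were 0.59 for Rps14, 0.28 for Rpl9, 0.48 for Rpl41, 0.59 for Rpl22 and 0.29 for Rpl17, with adjusted p of 0.0068 or less. RPS14 is the small subunit gene lost in the 5q- syndrome.

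A few members did not pass the test. In CGR8 the lowest changes at 5 h were those of Rpl29 (0.09 ± 0.20), Rpl4 (0.25 ± 0.12), Rps26 (0.29 ± 0.21) and Rps4x (0.31 ± 0.16), with adjusted p from 0.0829 to 0.736. Rpl29 stood at 192, 286 and 179 CPM at 0 h and at 278, 229 and 191 CPM at 5 h. The groups overlapped. Rps4x, the X-linked small subunit gene, stood at 1703, 2352 and 1714 CPM at 0 h and 2677, 2534 and 1955 CPM at 5 h, and overlapped too. After the GC and length correction Rps4x (-0.38, adjusted p = 0.0078), Rpl4 (-0.25, adjusted p = 0.0093), Rpl29 (-0.37, adjusted p = 0.023) and Rps26 (-0.53, adjusted p = 0.013) were called lower. In NIH/3T3 the lowest changes at 5 h were those of Rps10 (-0.23 ± 0.33), Rpl23a (-0.23 ± 0.20), Rpl28 (-0.22 ± 0.14), Rpl29 (-0.21 ± 0.12) and Rpl30 (-0.14 ± 0.11), and none of these passed the test without the correction (adjusted p from 0.136 to 0.591). With it Rpl23a (-0.73, adjusted p = 0.0033), Rpl28 (-0.41, adjusted p = 0.00071), Rpl29 (-0.35, adjusted p = 0.023) and Rpl30 (-0.28, adjusted p = 0.0018) were called lower, and Rps10 was not (-0.17, adjusted p = 0.72). Rpl28 stood at 698, 640 and 725 CPM at 0 h and at 587, 597 and 585 CPM at 5 h, so all 3 later libraries were the lower ones although the uncorrected test did not call it.

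**Figure D4:**
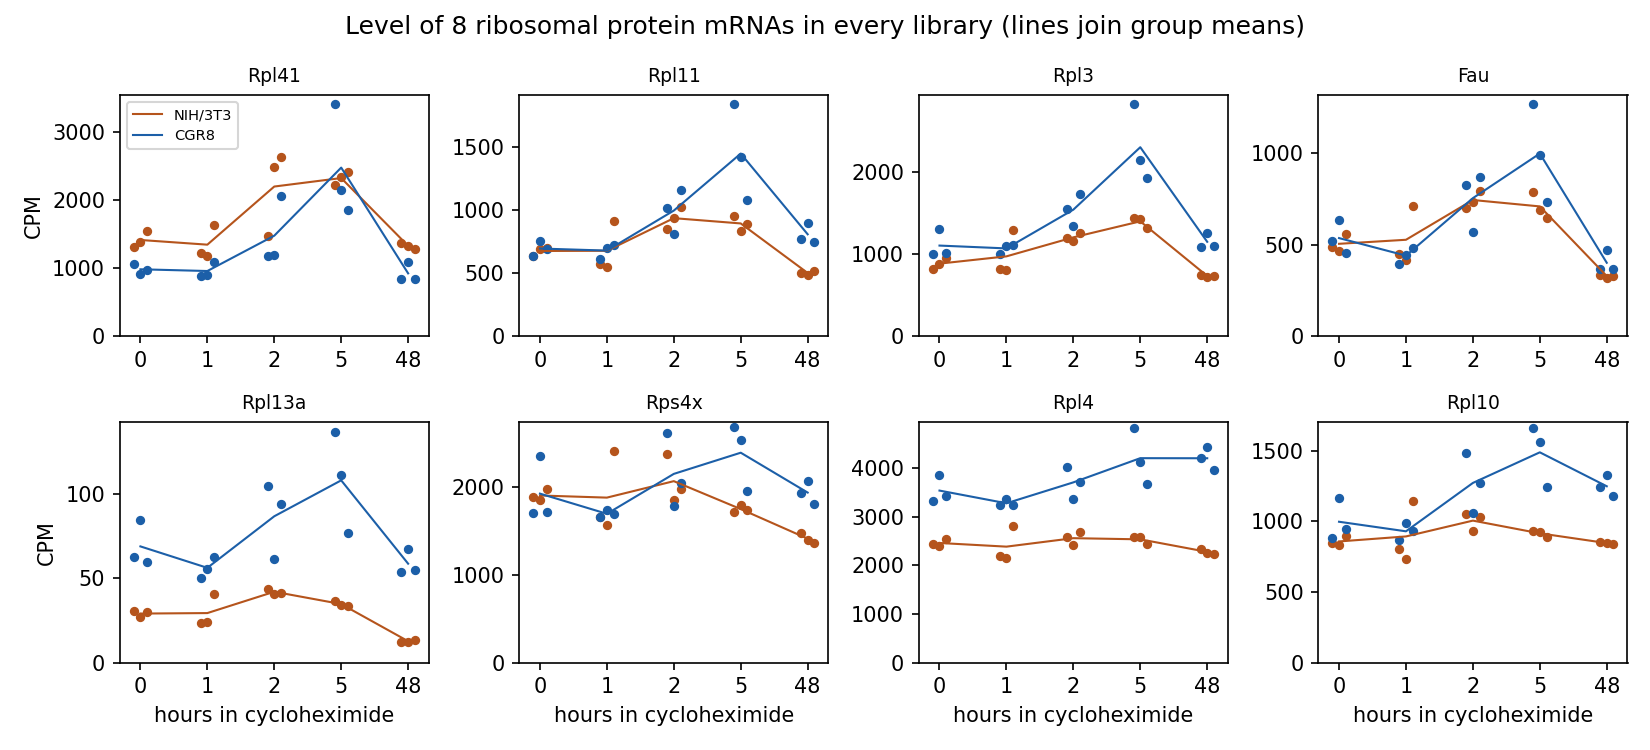
Level in CPM (vertical axes, starting at 0) of 8 ribosomal protein mRNAs in every library by hours in cycloheximide, evenly spaced. Both lines share the axis of a panel, but CPM were scaled within each line, so heights of different lines are not exactly comparable. Points are libraries, lines join the group means, and the panels show Rpl41 peaking at 5 h in CGR8, Rpl13a falling at 48 h in NIH/3T3 to 12.3 to 13.4 CPM, and Rpl4 at 3319 to 3861 CPM at 0 h and 3671 to 4819 CPM at 5 h in CGR8.

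The stalk genes rose less than most members in CGR8 at 5 h without the GC and length correction. There Rplp0 (0.58 ± 0.17, adjusted p = 0.00856), Rplp1 (0.46 ± 0.17, adjusted p = 0.0324) and Rplp2 (0.67 ± 0.20, adjusted p = 0.0105) rose, all under the median of 0.89. In NIH/3T3 none was called at 5 h (0.37 ± 0.17, 0.12 ± 0.14 and -0.05 ± 0.14 in the same order). Rplp0 lay above the NIH/3T3 member median of 0.34, and Rplp1 and Rplp2 lay below it. After the GC and length correction Rplp0 was called higher there (0.27, adjusted p = 0.043) and Rplp2 lower (-0.18, adjusted p = 0.036). Rplp1, the highest member per kilobase, stood at 1837, 2239 and 1670 CPM at 0 h in CGR8 and at 3101, 2771 and 2023 CPM at 5 h, where library C lay below library B at 0 h. After the GC and length correction its change was -0.08 (adjusted p = 0.45), so its direction turned, and those of Rplp0 (0.20, adjusted p = 0.082) and Rplp2 (0.21, adjusted p = 0.11) no longer passed the test.

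The 5S RNP genes Rpl5 and Rpl11 rose in both lines and fell at 48 h in NIH/3T3. Rpl11 went from 636, 753 and 692 CPM to 1844, 1419 and 1079 CPM at 5 h in CGR8 (1.06 ± 0.17, adjusted p = 0.000101), without overlap. In NIH/3T3 it went from 635, 690 and 698 to 955, 834 and 891 CPM at 5 h (0.40 ± 0.15, adjusted p = 0.0288) and to 503, 482 and 515 CPM at 48 h (-0.43 ± 0.15, adjusted p = 0.0204). Both later groups lay apart from 0 h. Rpl5 rose by 0.93 ± 0.16 in CGR8 (adjusted p = 0.000143) and by 0.55 ± 0.14 in NIH/3T3 at 5 h (adjusted p = 0.00468), and changed by -0.35 ± 0.14 in NIH/3T3 at 48 h (adjusted p = 0.0481). With the GC and length correction the NIH/3T3 changes of Rpl11 no longer passed the test at 5 h (0.15, adjusted p = 0.12) or 48 h (-0.16, adjusted p = 0.088), and neither did that of Rpl5 at 5 h (0.10, adjusted p = 0.39).

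Rpl3, Rpl12, Rpl30 and Rps3 are 4 members known for unproductive splice forms that are removed by nonsense-mediated decay, a pathway that needs translation. The other members were not checked for such forms. All 4 rose in CGR8 at 5 h, by 1.06 ± 0.15 for Rpl3 (adjusted p = 3.46e-05), 1.10 ± 0.16 for Rpl12 (adjusted p = 4.42e-05), 0.64 ± 0.18 for Rpl30 (adjusted p = 0.00659) and 0.96 ± 0.18 for Rps3 (adjusted p = 0.00047). Rpl3 stood at 1000, 1307 and 1009 CPM at 0 h and at 2840, 2153 and 1930 CPM at 5 h, with no overlap. Counts per gene do not tell splice forms apart. In NIH/3T3 Rpl3 (0.66 ± 0.14, adjusted p = 0.000789), Rpl12 (0.57 ± 0.16, adjusted p = 0.00718) and Rps3 (0.48 ± 0.17, adjusted p = 0.0244) rose, and Rpl30 did not pass the test (-0.14 ± 0.11, adjusted p = 0.286). Corrected for GC content and length, Rpl30 in CGR8 did not pass the test (0.17, adjusted p = 0.1). The median of the 4 was 1.01 in CGR8 and 0.53 in NIH/3T3, against 0.89 and 0.34 over all 76 members.

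Among the proteins that join late in assembly or are added in the cytoplasm, Rpl10 rose in CGR8 at 5 h (0.58 ± 0.14, adjusted p = 0.00283) and Rps26 and Rps10 did not pass the test there, while Rpl24 was not tested. Rpl10 stood at 882, 1162 and 946 CPM at 0 h and 1659, 1558 and 1246 CPM at 5 h, with all 3 later libraries higher. With GC content and length corrected its change was -0.18 (adjusted p = 0.1), and that of Rps6 turned in the same way. Rps6, the substrate of the S6 kinases, rose in CGR8 at 5 h by 0.57 ± 0.16 (adjusted p = 0.00828), from 738, 1060 and 747 to 1453, 1324 and 998 CPM, with library C at 5 h below library B at 0 h, and its corrected change was -0.11 (adjusted p = 0.38).

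Fau encodes a fusion of a ubiquitin-like protein with the small subunit protein eS30, and its run of 16 bases is the longest of those printed. It stood at 489, 464 and 560 CPM in NIH/3T3 at 0 h, 790, 690 and 648 CPM at 5 h and 336, 319 and 329 CPM at 48 h. The 3 groups were fully apart, and both the rise (0.49 ± 0.15, adjusted p = 0.013) and the later fall (-0.62 ± 0.15, adjusted p = 0.00282) were called. In CGR8 Fau rose at 5 h (0.90 ± 0.20, adjusted p = 0.00125) and stood at 366, 472 and 365 CPM at 48 h against 520, 634 and 454 CPM at 0 h, the lowest change of all members in CGR8 at that time (-0.42 ± 0.20), which did not pass the test (adjusted p = 0.122). Rpsa, which also serves as a laminin receptor, rose in CGR8 at 5 h (0.70 ± 0.19, adjusted p = 0.00666) and changed by 0.31 ± 0.15 in NIH/3T3 (adjusted p = 0.0959).

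Members were also split by the pyrimidine run in the window. In CGR8 at 5 h 26 of 30 tested members with a run and 25 of 27 without one rose, with medians of 0.91 and 0.87. In NIH/3T3 at 5 h the medians were 0.41 and 0.33, and at 48 h they were -0.30 and -0.27. Of the 76 members, 30 carry an annotated snoRNA on their own strand. Their median change at 5 h was 0.74 in CGR8 and 0.26 in NIH/3T3, against 0.90 and 0.40 in the 46 others. These are descriptions without a test. Across the 76 members the log2 fold change at 5 h had a Pearson r with log2 transcript length of -0.10 in CGR8 and 0.09 in NIH/3T3, and with GC content of 0.03 and -0.09. The points share libraries, and the principal transcripts ran from 345 to 5179 bases with a median of 886.5.

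**Figure D5:**
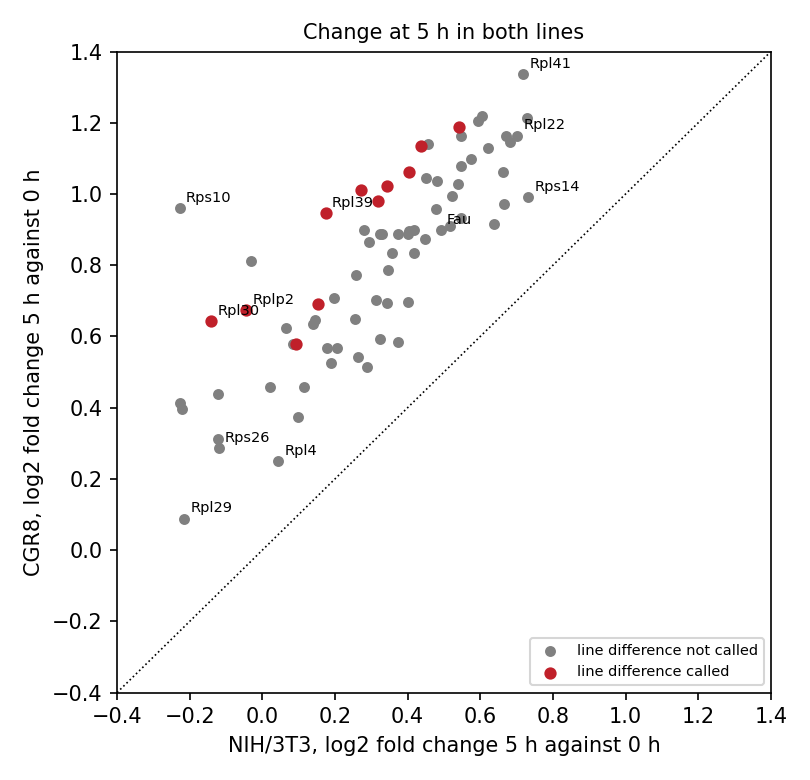
Log2 fold change at 5 h against 0 h of 76 ribosomal protein genes in NIH/3T3 (horizontal axis) and CGR8 (vertical axis), with the dotted line marking equal change. All points lie above that line, red points mark the 11 members whose difference between lines passed an adjusted p of 0.05, and Pearson r across members was 0.81.

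The order of the members was partly shared between the lines. Pearson r of the log2 fold changes across 76 members was 0.79 at 2 h, 0.81 at 5 h and 0.31 at 48 h, as a description over genes that share libraries within a line. The test of the line difference called 11 members at 5 h, all with a larger change in CGR8, where 8.18% of all 17549 genes were called in that direction. The difference was positive in 76 of 76 members, with a median of 0.58 against 0.13 over all genes. At 2 h no member was called, the count at an unadjusted p under 0.05 was 0 and DESeq2 called 0, where 2.02% of all genes were called.

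Rpl30 had the largest line difference of the 11 (0.87 ± 0.22, adjusted p = 0.00869), followed by Rpl39 (0.86 ± 0.20, adjusted p = 0.00351), a small protein at the exit of the peptide tunnel that is named here because it passed this test. Rpl30 stood at 122, 172 and 117 CPM at 0 h and 259, 221 and 163 CPM at 5 h in CGR8, and at 153, 142 and 164 CPM and then 135, 148 and 134 CPM in NIH/3T3. The groups overlapped in both lines. Rpl39 stood at 219, 267 and 232 CPM and then 553, 442 and 387 CPM in CGR8, without overlap, and at 110, 119 and 119 CPM and then 132, 137 and 125 CPM in NIH/3T3. There too the groups were apart, though the test did not call the difference (0.17 ± 0.12, adjusted p = 0.254). After the GC and length correction Rpl39 was called lower at 5 h in NIH/3T3 (-0.34, adjusted p = 0.00016) and was not called in CGR8 (0.10, adjusted p = 0.26). Rps10 (1.27 ± 0.73, adjusted p = 0.27) and Rpl37a (0.93 ± 0.35, adjusted p = 0.0758) had larger differences that did not pass the test. Rplp2 (0.81 ± 0.26, adjusted p = 0.0385), Rpl38 (0.83 ± 0.27, adjusted p = 0.0391), whose loss alters translation of Hox mRNAs in mouse embryos, and Rpl11 (0.75 ± 0.24, adjusted p = 0.0352) were also among the 11. The count rested on single libraries. It was 0 without CGR8 library A at 5 h, 1 without B at 5 h and 52 without C at 5 h, 38 without B at 0 h, 3 without A or C at 0 h, and 7, 4, 4 and 3 without NIH/3T3 A at 0 h, C at 0 h, B at 5 h and C at 5 h. The median member lay highest of its group in CGR8 library B at 0 h and lowest of its group in library C at 5 h, by the library medians already given. With the GC and length correction the count was 11 and the median 0.29, where 17.7% of all genes were called.

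At 48 h the members stood lower than at 0 h in NIH/3T3. There 25 of 76 members, or 32.9%, fell and none rose, with a median of -0.30. The share that fell was near the 25.6% of all genes that fell. All 3 libraries lay below all 0 h libraries in 62 members, as in 34.7% of all genes. In CGR8 no member was called by edgeR's quasi-likelihood test, where 27.8% of all genes were called, 3 had an unadjusted p under 0.05, DESeq2 called 0, and the median was 0.02. With voom and sample quality weights 14 members were called higher in CGR8, where that method called 44.3% of all genes. After the GC and length correction 15 members were called higher in CGR8, with a median of 0.11, and 4 higher and 8 lower in NIH/3T3, with a median of -0.07. Both were smaller shares of the members than the shares of all genes that the corrected fits called, 36.5% in CGR8 and 56.6% in NIH/3T3. The NIH/3T3 count was 6 without library C at 0 h and 14, 10 and 12 without A, B and C at 48 h. In CGR8 1 member was called without library B at 0 h.

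The fall of Rpl13a, one of the members with few counts, was the largest called in NIH/3T3 at 48 h. It stood at 30.4, 27.0 and 29.8 CPM at 0 h and at 12.3, 12.3 and 13.4 CPM at 48 h (-1.20 ± 0.16 in log2, adjusted p = 1.41e-05). The groups lay far apart, and the change was -0.93 after the GC and length correction (adjusted p = 4.5e-07). In CGR8 it stood at 62.3, 84.5 and 59.8 CPM and then at 53.4, 67.6 and 54.8 CPM, with overlap (-0.23 ± 0.21, adjusted p = 0.453). It was the only member with a called line difference at 48 h (0.95 ± 0.29, adjusted p = 0.0166), where 9.78% of all genes were called in that direction. Without CGR8 library B at 48 h no member was called, and without CGR8 library B at 0 h 9 were called.

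The next lowest in NIH/3T3 at 48 h was Rps10 (-1 ± 0.36, adjusted p = 0.0294), at 1.33, 0.98 and 1.15 CPM at 0 h and 0.64, 0.54 and 0.52 CPM at 48 h, and with the GC and length correction it did not pass the test (-0.81, adjusted p = 0.098). Fau followed, then Rps3 (-0.58 ± 0.17, adjusted p = 0.00837) and Rps3a1 (-0.54 ± 0.15, adjusted p = 0.00578). Rps3 stood at 1320, 1349 and 1519 CPM at 0 h and at 936, 928 and 943 CPM at 48 h, with no overlap. At the other end Rps28 (0.14 ± 0.20, adjusted p = 0.594), Rps2 (0.08 ± 0.11, adjusted p = 0.561), Rpl10 (-0.02 ± 0.12, adjusted p = 0.905), Rpl36 (-0.06 ± 0.17) and Rpl37 (-0.07 ± 0.16) did not pass the test. In CGR8 the highest changes at 48 h were those of Rps10 (0.40 ± 0.58), Rpl10 (0.32 ± 0.14) and Rps2 (0.30 ± 0.15), and the lowest after Fau were those of Rpl18 (-0.29 ± 0.17), Rps14 (-0.29 ± 0.20) and Rps12 (-0.27 ± 0.18), none of them called. Once GC content and length were corrected, Rps2 (0.33 in NIH/3T3 and 0.45 in CGR8) and Rpl10 (0.26 and 0.38) were called higher at 48 h in both lines, and Rps28 in NIH/3T3 (0.35, adjusted p = 0.047).

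From 5 to 48 h most members fell in both lines, 59 of 76 in NIH/3T3 (31.4% of all genes fell) and 64 of 76 in CGR8 (28.6% of all genes fell), with medians of -0.61 and -0.84. These comparisons share the 5 h libraries with those above. All 3 libraries at 48 h lay below those at 5 h in 71 members in NIH/3T3 (38.4% of all genes) and in 61 in CGR8 (31%). With GC content and length corrected, 20 rose and 34 fell in NIH/3T3, and 12 rose and 26 fell in CGR8, with medians of -0.15 and -0.13. The corrected fits called 62.6% and 53.6% of all genes.

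Paralogs of the members, which are separate genes for closely related proteins, were read from the same fits. For them, and for the other TOP mRNAs, TOP regulators and chaperones that follow, all values are without the GC and length correction. The other alternatives were not read out for these lists either. The part of transcript length and library make-up in their changes was not tested. At 5 h, of 8 tested in CGR8, 7 rose and none fell, and of 5 tested in NIH/3T3, 4 rose and none fell, with medians of 0.97 and 0.85. Of all genes, 24.9% and 24% rose. Rpl39l, the paralog of Rpl39 best known from testis, rose by 1.25 ± 0.17 in CGR8 (adjusted p = 2.2e-05) and by 0.85 ± 0.15 in NIH/3T3 (adjusted p = 0.00016). Rpl7l1 rose by 0.96 ± 0.12 and 1.04 ± 0.11 in the same order, and Rps27l by 1.08 ± 0.15 and 0.71 ± 0.15. At 48 h Rpl7l1 fell in NIH/3T3 (-0.37 ± 0.11, adjusted p = 0.0071).

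Among 18 other mRNAs known to carry a TOP motif, 12 rose and 3 fell in CGR8 at 5 h, and 10 rose and 4 fell in NIH/3T3. Of all genes, 24.9% rose and 27.2% fell in CGR8, and 24% rose and 27.1% fell in NIH/3T3. The nascent chain factors Btf3 (0.91 ± 0.15 in CGR8 and 0.57 ± 0.14 in NIH/3T3) and Naca (0.91 ± 0.14 and 0.54 ± 0.14) rose. Pabpc1, the poly(A)-binding protein, fell by 0.69 in CGR8 (SE 0.12, adjusted p = 0.00018) and by 0.93 in NIH/3T3 (SE 0.10, adjusted p = 2.2e-06), and the elongation factor Eef2 fell (-0.59 ± 0.15 and -0.80 ± 0.13). At 48 h 10 of the 18 fell in NIH/3T3 (25.6% of all genes fell) and none rose, and in CGR8 1 rose and none fell (27.8% of all genes were called). The line difference at 48 h was called in 8 of 18, all higher in CGR8, as in 9.78% of all genes.

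Among 14 regulators of TOP mRNAs, 3 rose and 8 fell in CGR8 at 5 h, and 3 rose and 3 fell in NIH/3T3. The 6 of 14 called in NIH/3T3 were a smaller share than the 51% of all genes called there, and 52.1% of all genes were called in CGR8. The translation repressor Eif4ebp2 fell (-1.18 ± 0.14 in CGR8 and -1.47 ± 0.11 in NIH/3T3), and so did Tsc2, an inhibitor of mTOR signalling (-0.88 ± 0.13 and -0.84 ± 0.13), and Larp1 (-0.69 ± 0.12 and -0.64 ± 0.13). The cap-binding protein Eif4e rose by 0.57 ± 0.09 and 0.72 ± 0.09 and the mTOR activator Rheb by 0.41 ± 0.09 and 0.52 ± 0.09. At 48 h Eif4ebp1 fell in both lines, by 1.36 in NIH/3T3 (SE 0.15) and by 1.00 in CGR8 (SE 0.19). Tsc1 rose in both at 48 h, by 0.71 ± 0.13 and 0.63 ± 0.16.

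Of 10 tested chaperones and assembly factors that carry ribosomal proteins, 7 fell and none rose at 48 h in NIH/3T3, where 25.6% of all genes fell. In CGR8 at 48 h their adjusted p values were 0.054 or more, and the line difference was called in 6, all higher in CGR8, as in 9.78% of all genes. Mrto4, which takes the place of Rplp0 on the maturing large subunit, fell by 1.21 in NIH/3T3 (SE 0.15, adjusted p = 5.4e-06) and changed by -0.28 ± 0.15 in CGR8 (adjusted p = 0.17), a line difference of 0.90 ± 0.22 (adjusted p = 0.0034). Pdcd2l fell by 0.99 in NIH/3T3 (SE 0.12) with a line difference of 0.82 ± 0.22. Rpf2, which helps to place the 5S particle with Rpl5 and Rpl11, rose at 5 h in both lines (0.66 ± 0.11 in NIH/3T3 and 0.78 ± 0.10 in CGR8) and fell by 0.79 at 48 h in NIH/3T3 (SE 0.11), with a line difference of 1.00 ± 0.15 (adjusted p = 1.9e-05).

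Outside the members and their paralogs, the genes whose log2 CPM over the 30 libraries was most like the mean of the members were Psmb4 (Pearson r 0.98), Tbrg1 (0.98), Sf3b5 (0.98), Banf1 (0.98) and Ppia (0.97), among 7040 genes compared. Psmb4 is a proteasome subunit, Sf3b5 a splicing factor subunit and Ppia cyclophilin A.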

How the data were processed

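RNA-seq counts per gene from 30 libraries were used as deposited. Per the submitters' processing notes, STAR and DESeq2 were used with build GRCm39, and the labels name a stranded mRNA ligation kit. The counting tool, its strand setting and the annotation release are not given in the sources used here. The deposited whole-number counts are not normalized. Symbols, lengths, GC content and overlaps came from GENCODE M21, an annotation of another build, so no gene coordinates are given from it, and 90.8% of identifiers had a symbol there. Promoter windows are from RefSeq (GRCm38.p6).

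Genes were kept by filterByExpr (minimum count 10, total 15), scaled by TMM and tested by edgeR 4.0.16 quasi-likelihood F tests (R 4.3.3) over the 15 libraries of a line, or over all 30 for line comparisons, with Benjamini-Hochberg adjustment over all genes and a threshold of 0.05. Called means past that threshold. Levels are CPM with TMM scaling. Library medians used log2(CPM + 0.5). Alternatives were RLE factors, library totals, DESeq2 1.42.0, limma 3.58.1 voom, other filters, the compared groups alone, a replicate block, offsets for GC content and length, and each library left out.

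The members and lists were chosen with earlier results of these data known. Genes named are, by rule, the members with the 5 highest and 5 lowest changes at 5 and 48 h in each line, the largest differences between lines, the highest and lowest levels, members with set roles, and the largest called changes of each other list. Replicate counts differed beyond sampling noise in every pair (chi-square divided by its degrees of freedom 1.75 or more), so none was counted as a duplicate. Some genes that this rule names are not reported here.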

Additional observations from a re-analysis of the deposited data

Results flagged for a closer look

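The change at 5 h differed between the lines, by the test of the difference itself, in 11 members. In log2 units, CGR8 minus NIH/3T3, the differences of 10 of them are 0.87 for Rpl30, 0.86 for Rpl39, 0.83 for Rpl38, 0.81 for Rplp2, 0.79 for Rpl36, 0.75 for Rps23, 0.75 for Rpl11, 0.74 for Rps24, 0.63 for Rpl14 and 0.57 for Rpl10. These 10 are listed because they passed the test, also where the naming rule does not reach them. At 48 h the change differed in 1 member, Rpl13a, by 0.95. The first count ranged from 0 to 52 when single libraries were left out and the second from 0 to 9.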

How the results depend on the processing

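Among the called changes of named members, alternatives moved values past the threshold more often than they turned directions. They also changed the counts of called members. With voom and sample quality weights the counts were 26 for NIH/3T3 at 1 h, 61 at 5 h and 64 at 48 h, 55 for CGR8 at 2 h and 14 at 48 h, and 75 and 50 for the line differences at 5 and 48 h. With no filter on low counts they were 42 for NIH/3T3 at 48 h, 1, 40 and 1 for CGR8 at 1, 2 and 48 h, and 51 and 17 for the line differences. With the compared groups alone they were 59 and 67 for NIH/3T3 at 5 and 48 h and 1 and 2 for CGR8 at 2 and 48 h. Library totals gave 15 for NIH/3T3 at 48 h and 3 for the line difference at 5 h, RLE factors gave 4 and 2 for the line differences, a mean of at least 5 CPM gave 4 and 3, and DESeq2 gave 4 at 48 h. The GC and length correction gave 27 and 12 for NIH/3T3 at 2 and 48 h, 7, 43 and 15 for CGR8 at 2, 5 and 48 h, 38 for CGR8 from 5 to 48 h, 6 for the line difference at 48 h and 45 between the lines at 0 h, where most called members were then lower in CGR8. The replicate block with that correction gave 26, 12, 6, 42, 14, 39, 6 and 45 in the same order. Both turned Rplp1 (-0.082 and -0.082), Rpl10 (-0.18 and -0.18) and Rps6 (-0.11 and -0.11) in CGR8 at 5 h. For these changes with the setting the cause was not tested.

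Leaving out each library gave 0 to 1 for NIH/3T3 at 1 h, 17 to 39 at 2 h, 20 to 29 at 5 h, 6 to 21 at 48 h and 53 to 58 from 5 to 48 h. It gave 0 to 44 for CGR8 at 2 h, 60 to 74 at 5 h, 0 to 1 at 48 h and 57 to 71 from 5 to 48 h, 0 to 52 and 0 to 9 for the line differences at 5 and 48 h, and 24 to 31 between the lines at 0 h. The deviations of libraries from their group means correlated over 0.1 in 6 of 30 same-letter pairs in NIH/3T3 and 10 of 30 in CGR8. The r ran from -0.29 to 0.37 in NIH/3T3 and from -0.66 to 0.53 in CGR8. These values do not settle whether the replicate letters pair the libraries. The replicate block alone gave 47, 37 and 27 for NIH/3T3 at 2, 5 and 48 h and 15 and 66 for CGR8 at 2 and 5 h. Of 1059 values of the 66 called changes of named members under all alternatives, 919 kept their direction and side of the threshold, 134 no longer passed it and 6 turned, all 6 under the GC and length correction. Changes that were not called without an alternative are outside this count, and so are called changes that the naming rule does not reach. Some of the latter turned under the GC and length correction. Rps23 in NIH/3T3 at 5 h went from 0.32 (adjusted p = 0.0371), called higher, to -0.20 (adjusted p = 0.0037), called lower. In CGR8 at 5 h Rpl23 went from 0.58 to -0.18 and Rpl37a from 0.81 to -0.13, both called only without the correction. With the GC and length correction alone, 44 of the 66 stayed the same, 19 no longer passed the threshold and 3 turned. That setting moved 9 of 14 member medians by more than the SD between libraries, and 5 stayed within it. The 40 values of the members' share came only from leaving out 1 library or the mitochondrially encoded genes. All stayed within the SD between libraries. Leaving out 1 of 3 libraries cannot move a mean beyond that SD, so this is no test of the share. The share was not computed with the GC and length correction. Library totals alone moved the median of all genes from -0.01 to -0.12 in CGR8 at 5 h, where the member median was 0.78, and from 0.13 to -0.06 in the line difference at 5 h, where it was 0.38. Rpl24, with at most 5 counts in any library, was too shallow to be tested.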
